A study of Homo sapiens with 14 samples.

Results

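The response of LNCaP cells to the androgen R1881 while protein synthesis was blocked was read from 10 of the 14 two-colour arrays, as the ratio of CHX/R1881-treated to CHX-treated cells. CHX is cycloheximide, an inhibitor of translation elongation, and R1881 (metribolone) is a synthetic androgen that cells metabolise slowly. LNCaP is a human prostate cancer line derived from a lymph node metastasis. The CHX/R1881 group received 1 nM R1881 and 25 µg/ml CHX, both added at once, for 24 h. The R1881 group received 1 nM R1881 alone, the CHX group 25 µg/ml CHX alone, and the control group neither. All groups, control included, had first spent 36 h in complete medium and then 48 h in medium with steroid-stripped serum. Each treatment was run in 2 independent culture experiments of this 1 line, and each comparison was hybridised in both dye orientations.

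Androgens change the transcription of their target genes through hormone response elements in DNA, built from half-sites related to AGAACA. Genes that the hormone switches on directly need no new protein, whereas genes switched on by the products of other androgen-responsive genes do. CHX is used to separate these classes, although it also stabilises many short-lived transcripts and removes short-lived proteins.

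Each gene had 6 measurements of the contrast, given throughout as log2 ratios. Of these, 2 came from the direct arrays, on which CHX/R1881 RNA and CHX RNA were hybridised together, once with CHX/R1881 RNA in Cy3 and once with it in Cy5. The labels number both as biological replicate 1, which was taken to mean experiment 1. The other 4 were indirect, the log ratio of CHX/R1881 over control minus that of CHX over control, for each experiment and each dye. A gene was called agreeing where all 6 had 1 sign. On that reading the direct arrays share cultures with experiment 1, so the 6 values are not 6 independent replicates, and n stayed at 2 experiments. The statistical test was limma over the averaged dye swaps of 14533 named genes, with Benjamini-Hochberg adjustment.

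The deposited values were multiplied by -1, because 50 of 60 measured genes of a list taken as androgen-induced were below 0 as deposited in R1881 over control, with a median of -0.20. On the direct arrays 46 of the 60 were below 0 as deposited, with a median of -0.09. Some genes were put on that list with earlier results of these data known, so the direction of every value here is likely rather than certain. The arrays hold ratios only, so levels, and with them the luminal prostate identity of the cells, could not be checked. Equal RNA was labelled from each culture, and fewer cells and less RNA per cell cannot be told apart.

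Adding R1881 to CHX-treated cells gave far smaller log ratios than CHX itself. The SD over genes was 0.12 and 0.18 for the single direct arrays and 0.23 to 0.28 for the single indirect measurements. Single arrays of CHX over control had SDs of 0.58 to 0.65, and those of R1881 over control 0.17 to 0.24. Averaging brought the SD to 0.11 for the direct mean and 0.13 for the indirect mean. Limma called 5519 of 14533 genes in CHX over control and 0 of 14533 (0%) in CHX/R1881 over CHX. At an unadjusted p under 0.05 there were 185 genes, 121 higher and 64 lower with R1881, fewer than the 727 that 5% of the genes tested would make. This fit held no term for experiment, although CHX/R1881 and CHX were paired within experiments. With experiment as a block the count was 358, so the shortfall depends on the fit and is no measure of absent response. The smallest adjusted p was 0.904, for TNK2. Nothing below therefore passed the test, and "above" and "below" describe values. An alternative that kept the 12 arrays apart with a random block called 2 genes, C1orf116 and ZBTB16, both higher and both with an adjusted p of 0.00965 by limma, while the other alternatives called 0. It entered the dye swaps of each culture as separate values, tied by 1 correlation of 0.243 for all genes, and held no term for experiment. Those adjusted p-values therefore rest in part on technical swaps, with 2 cultures per treatment.

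The measurements shared little across the genome. Over 14533 genes the direct mean had a Pearson correlation of 0.234 with the difference of experiment 1 and of 0.087 with the difference of experiment 2. The differences of the 2 experiments had a correlation of -0.031, and the 2 direct arrays one of 0.015. The genes are not independent, and these correlations are descriptions only.

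All 6 measurements were above 0 for 750 genes (5.16% of those measured) and below 0 for 460 genes (3.17%). The agreeing genes numbered 1210 in all, and 62.0% of them were above 0. With each measurement centred on its median, a step added after seeing the data, 658 were above and 583 below, a smaller excess above 0. Without replicate 2 of the indirect arrays the split turned, to 1570 above and 1856 below, and without replicate 1 it was 1718 above and 948 below. Only 138 genes reached a size of 0.1 in all 6 measurements, 94 above and 44 below.

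**Figure D1:**
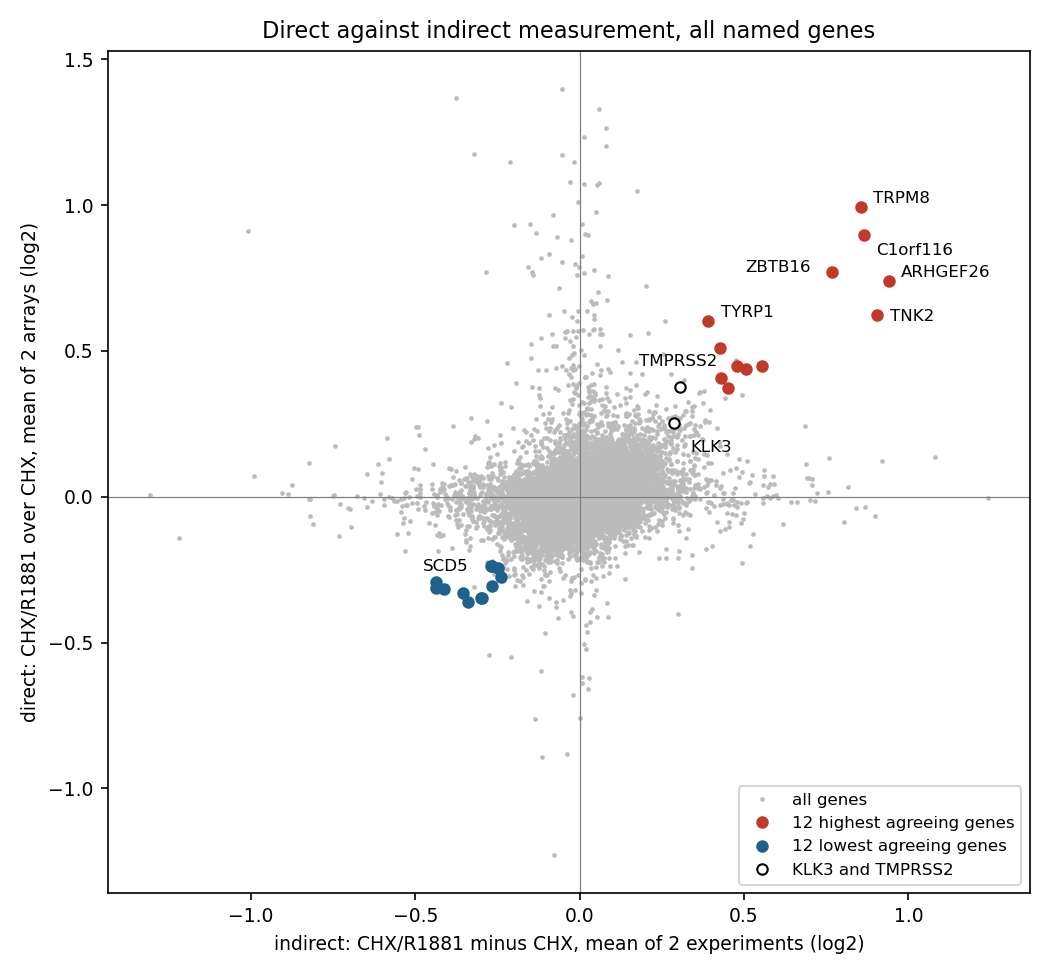
Direct mean of 2 arrays (vertical axis, log2) against indirect mean of 2 experiments (horizontal axis, log2) for CHX/R1881 over CHX; each grey point is 1 of 14533 genes, red and blue points are the 12 highest and 12 lowest agreeing genes, and open circles are KLK3 and TMPRSS2. Most genes lie near 0 or along 1 axis, while C1orf116, TRPM8, ZBTB16, ARHGEF26 and TNK2 stand apart on both, at 0.62 to 0.99 in the direct mean and 0.77 to 0.94 in the indirect mean.

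The agreeing genes were ranked by the smaller, in size, of their direct and indirect means, so their values describe the ranking and are no test of it. The 5 leading genes above 0 were C1orf116, TRPM8, ZBTB16, ARHGEF26 and TNK2. C1orf116 encodes a protein known as specifically androgen-regulated gene protein. Its direct ratios were 0.88 and 0.92, and its indirect ratios were 0.89 and 0.92 in experiment 1 and 0.79 and 0.86 in experiment 2. The indirect mean was 0.87 ± 0.06 (SD, n = 2 experiments), or 1.82-fold. Both probes of the gene lay above 0, at indirect means of 1.07 and 0.66.

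TRPM8, a cold- and menthol-gated cation channel of prostate epithelium and sensory neurons, had direct ratios of 1.01 and 0.98. Its indirect ratios were 0.99 and 0.68 in experiment 1 and 0.90 and 0.85 in experiment 2, with a mean of 0.86 ± 0.03 (SD, n = 2). ZBTB16, also called PLZF, is a zinc finger repressor that androgens and glucocorticoids both induce. It had direct ratios of 0.67 and 0.87 and an indirect mean of 0.77 ± 0.04 (SD, n = 2), with no measurement under 0.67.

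ARHGEF26, an exchange factor for the small GTPase RhoG, had direct ratios of 0.81 and 0.67 and an indirect mean of 0.94 ± 0.13 (SD, n = 2). CHX alone gave -1.32 and CHX/R1881 over control -0.38. TNK2, the non-receptor tyrosine kinase ACK1, had direct ratios of 0.61 and 0.64 and an indirect mean of 0.91 ± 0.08 (SD, n = 2). On the 4 arrays of CHX/R1881 over control it lay between 1.36 and 1.41, but CHX over control gave 0.04 on 1 array of experiment 1 and 0.54 to 0.79 on the other 3. With R1881 alone TNK2 was at 0.08 ± 0.02 (SD, n = 2), so its response with CHX exceeded that without by 0.83, a difference that limma did not call (unadjusted p = 0.000286, adjusted p = 1.00).

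The remaining 7 of the 12 highest had indirect means of 0.39 to 0.56. TFPI, an inhibitor of the tissue factor pathway of coagulation, had an indirect mean of 0.48 ± 0.03 and TGFBR3, the TGF-beta co-receptor betaglycan, one of 0.51 ± 0.06 (SD, n = 2 each). ADH6, an alcohol dehydrogenase, reached 0.56 ± 0.13 (SD, n = 2). HMOX1, the haem-degrading oxygenase induced by stress, had indirect values of 0.43 in both experiments and direct values of 0.45 and 0.57. It stood on top of a CHX effect of 1.65, against 0.10 with R1881 alone.

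PLA2G2A, a secreted phospholipase A2, had an indirect mean of 0.43 ± 0.13 and GHR, the growth hormone receptor, one of 0.45 ± 0.24 (SD, n = 2 each). TYRP1, an enzyme of melanin synthesis, had an indirect mean of 0.39 ± 0.04 (SD, n = 2), while its CHX/R1881 over control ratios ranged from 0.69 to 1.63 over the 4 arrays. Leaving out 1 experiment of either CHX/R1881 or CHX put TYRP1 between 0.038 and 0.75 and GHR between 0.055 and 0.85. Such settings drop 1 experiment from 1 treatment only, so CHX/R1881 and CHX are no longer paired within experiments. Paired within experiments 1 and 2, TYRP1 was at 0.42 and 0.36 and GHR at 0.62 and 0.28. The ranking was continuous at its edge, with GHR inside at 0.37 and RIMS1 (0.36), GPR158 (0.36) and NNMT (0.34) just outside.

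**Figure D2:**
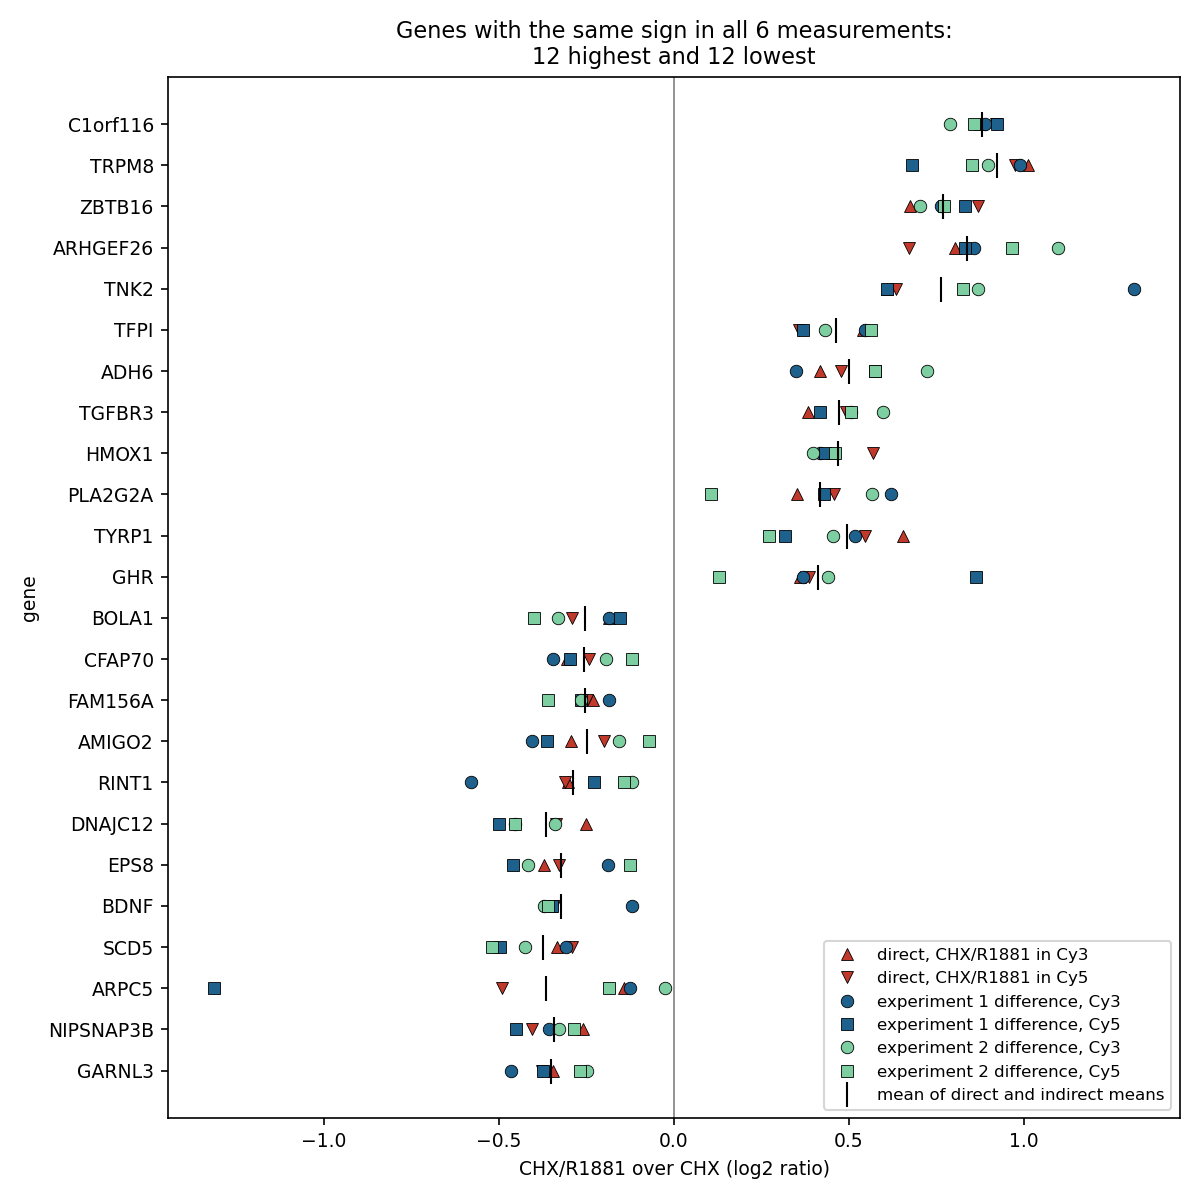
CHX/R1881 over CHX (horizontal axis, log2 ratio) in the 12 highest and 12 lowest agreeing genes, 1 symbol per measurement (red triangles, the direct arrays; blue, experiment 1; green, experiment 2; circles and squares, treated RNA in Cy3 and Cy5) and a black bar for the mean of the direct and indirect means. The 6 values of C1orf116 and ZBTB16 lie close together, while ARPC5 spreads from -0.03 to -1.31.

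On the other side the values were smaller. The 12 lowest agreeing genes had indirect means of -0.24 to -0.44. The ranking ended with BOLA1, whose direct mean of -0.24 placed it, next to TP53INP1, which also rounds to -0.24. When 1 experiment of either CHX/R1881 or CHX was left out, 6 of these 12 genes turned above 0 in 1 setting (NIPSNAP3B, ARPC5, RINT1, AMIGO2, CFAP70 and BOLA1, up to 0.062). None of the 12 highest turned. These settings break the pairing of CHX/R1881 with CHX within experiments. Paired within each experiment, all 12 lowest genes were below 0, with NIPSNAP3B at -0.40 and -0.31. GARNL3, a protein with a Rap GTPase-activating domain, had direct ratios of -0.35 and -0.38 and an indirect mean of -0.34 ± 0.11 (SD, n = 2). DNAJC12, a co-chaperone, had direct ratios of -0.25 and -0.34 and an indirect mean of -0.44 ± 0.06 (SD, n = 2). NIPSNAP3B had an indirect mean of -0.35 ± 0.07 (SD, n = 2). DNAJC12 and NIPSNAP3B were also below 0 with R1881 alone, at -0.49 and -0.67.

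BDNF, a neurotrophin, and EPS8, an actin regulator downstream of the EGF receptor, both had indirect means of -0.30, at SDs of 0.09 and 0.04 (n = 2 each). Both had a large CHX effect, 2.10 for BDNF and 1.72 for EPS8, and R1881 alone left them at -0.06 and -0.03. With 1 experiment of CHX/R1881 or CHX left out EPS8 ranged from -0.071 to -0.52, while paired within experiments it was at -0.32 and -0.27. RINT1, a vesicle tethering factor of the endoplasmic reticulum, showed the same order, with an indirect mean of -0.27 ± 0.19 (SD, n = 2) and a CHX effect of 2.01. Among the 12 genes, 8 were above 0 in CHX over control, where the median over all genes was 0.002. The indirect values subtract these same CHX arrays. Low indirect values therefore go with high CHX over control in part by construction, and high indirect values with low CHX over control. ARPC5, a subunit of the actin-nucleating ARP2/3 complex, had an indirect value of -1.31 in experiment 1 (Cy5), against -0.12 for the swapped dye, and direct ratios of -0.14 and -0.49.

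SCD5, a stearoyl-CoA desaturase, lay on opposite sides of 0 with and without CHX. Its direct ratios were -0.33 and -0.29 and its indirect ratios -0.31, -0.50, -0.42 and -0.52, whereas the 4 arrays of R1881 over control gave 1.04, 1.49, 1.36 and 1.96. No value with CHX overlapped those without. The response with CHX was lower by 1.90, which limma did not call (unadjusted p = 7.66e-05, adjusted p = 0.610). The difference of the responses had 0 called genes (0% of 14533), with 356 at an unadjusted p under 0.05. Scaling the arrays to equal spread or quantile normalization called SCD5 alone, at adjusted p = 0.0106 and 0.0117 by limma. Both settings force arrays of R1881 over control (SD 0.17 to 0.24) and of CHX over control (SD 0.58 to 0.65) to 1 spread. With CHX, SCD5 then moved from -0.44 to -0.34 and -0.35. The 2 responses are thus rescaled by different amounts, and these calls are no evidence of a difference.

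The textbook androgen-induced genes had small ratios above 0. TMPRSS2, a luminal serine protease, had direct ratios of 0.44 and 0.31 and indirect ratios of 0.29, 0.32, 0.42 and 0.19. Its indirect mean was 0.31 ± 0.00 (SD 0.001, n = 2) with CHX and 1.66 ± 0.17 (SD, n = 2) with R1881 alone, where it was the single gene that limma called (adjusted p = 0.0202). FKBP5 encodes an HSP90-binding immunophilin. It had an indirect mean of 0.26 ± 0.01 (SD, n = 2) with CHX and 0.69 ± 0.12 (SD, n = 2) with R1881 alone, and its 6 values ran from 0.17 to 0.30. With 1 experiment of CHX/R1881 or CHX left out, FKBP5 ranged from 0.10 to 0.41 and NDRG1 from 0.11 to 0.39. NDRG1, a differentiation and stress protein, had an indirect mean of 0.25 ± 0.02 (SD, n = 2) and 6 values above 0. Its dye orientations differed, at 0.36 and 0.11 in experiment 1 and 0.03 and 0.50 in experiment 2, and its direct ratios were 0.07 and 0.18.

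KLK3, which encodes prostate-specific antigen, had direct ratios of 0.25 on both arrays and an indirect mean of 0.29 ± 0.12 (SD, n = 2) with CHX, against 0.98 ± 0.01 (SD, n = 2) with R1881 alone. It ranged from 0.15 to 0.42 with 1 experiment of CHX/R1881 or CHX left out. CHX alone gave -1.54. The gene value averages 3 probes that differed, at indirect means of 0.31, 0.13 and 0.41 with CHX and at 1.49, -0.36 and 1.81 with R1881 alone. KLK2, its neighbour and close paralogue, had an indirect mean of 0.18 ± 0.01 (SD, n = 2). The 2 probes of KLK2 also differed, at 0.25 and 0.11 with CHX and at 1.65 and -0.12 with R1881 alone. Cross-hybridisation between the paralogues was not tested. The proximal promoters of both genes are known to hold a hormone response element, and they are shown here because the paired genes differ in its half-site. Capitals mark the 15 bases that start 170 bases before the KLK3 start and the closest 15 bases before the KLK2 start, from RefSeq promoters on GRCh38.p14, at chr19:50854718-50854777 and chr19:50873236-50873295, both plus strand.
KLK3: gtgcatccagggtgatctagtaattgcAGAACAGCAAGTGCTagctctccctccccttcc
KLK2: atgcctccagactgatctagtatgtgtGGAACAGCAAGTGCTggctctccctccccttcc
Counted from 1 at the 5′ end of the capitals, with the KLK3 base first, the stretches differ by A1G alone, and KLK2 therefore holds no AGAACA there.

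Searching both strands of the 250 bases before and 50 bases after each start found AGAACA in 51 of 608 promoters (8.39%) of agreeing genes above 0, in 28 of 387 (7.24%) of those below 0 and in 10.9% of the 11610 promoters of genes on the arrays. The full palindrome, AGAACA and its reverse complement 3 bases apart, occurred in 0 of the 11610. The search therefore did not set the agreeing genes apart in this window, and says nothing of more distant sites. Nor did it set the androgen-induced list apart, with AGAACA in 3 of 46 promoters (6.52%), those of KLK3, FKBP5 and PMEPA1. Of the 12 highest genes 10 had a promoter in the table, and 1 held the motif. Of the 12 lowest 11 had one, and 1 held it. These 2 and that of FKBP5 are printed with the half-site in capitals, from chr1:19979619-19979642, chr10:67838192-67838251 and chr6:35728575-35728610 of GRCh38.p14, all minus strand.
PLA2G2A: ggggagcaggagtgcAGAACAaac
DNAJC12: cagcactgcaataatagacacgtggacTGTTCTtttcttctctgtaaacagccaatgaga
FKBP5: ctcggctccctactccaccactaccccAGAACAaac
The half-site lies 32 bases past the start in PLA2G2A, 36 bases before it in DNAJC12 and at the start itself in FKBP5. The 250 bases before the start of C1orf116, the highest-ranked gene, hold no exact AGAACA or its reverse complement. They do hold GGAACAGCA, which also begins the capitals of KLK2, and whether it acts as a half-site was not tested. They are printed for comparison, from chr1:207032757-207033006, minus strand.
C1orf116: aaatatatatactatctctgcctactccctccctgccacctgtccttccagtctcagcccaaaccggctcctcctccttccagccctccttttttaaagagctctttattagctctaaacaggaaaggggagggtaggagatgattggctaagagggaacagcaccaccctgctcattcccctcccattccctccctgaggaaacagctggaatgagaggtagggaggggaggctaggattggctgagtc

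Other genes of the androgen-induced list had no clear value with CHX. Members of that list were chosen with earlier results of these data known. TM4SF1 and GNG3 were among the genes highest with R1881 alone in these same data. Their smaller values with CHX may therefore follow in part from that choice, and no loss of response can be read from them. TM4SF1, a tetraspanin-like membrane protein, was at 1.69 ± 0.01 (SD, n = 2) with R1881 alone. With CHX it was at 0.35 in experiment 1 and at -0.31 in experiment 2, where the indirect values were -0.72 in Cy3 and 0.09 in Cy5. GNG3, a G protein subunit, was above 0 in 5 of 6 measurements, with an indirect mean of 0.16 ± 0.09 with CHX and 1.38 ± 0.34 with R1881 alone (SD, n = 2 each). SGK1, a kinase induced by glucocorticoids, was above 0 in 5 of 6 and TSC22D3, the glucocorticoid-induced leucine zipper, in 4 of 6, with indirect means of 0.02 and 0.04. Neither stood far from 0 with R1881 alone, at 0.01 and 0.08.

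Androgen-induced genes as a list were mostly above 0 with CHX. Of 60 measured members of 67 listed, 18 (30%) were above 0 in all 6 measurements and 2 (3.33%) below, beside 5.16% and 3.17% of all genes. Limma called none of them. The list median was 0.10 in the indirect mean and 0.09 in the direct mean, beside 0.01 and 0.00 over all genes, and it was 0.20 with R1881 alone. The list median was above 0 on each direct array, at 0.10 with CHX/R1881 RNA in Cy3 and 0.08 in Cy5, and in each experiment, at 0.08 and 0.11. Members above 0 in all 6 included NNMT, nicotinamide N-methyltransferase, with direct ratios of 0.34 and 0.33 and an indirect mean of 0.44 ± 0.00 (SD 0.004, n = 2), and STEAP2, a metalloreductase, with an indirect mean of 0.37 ± 0.27 (SD, n = 2). DNAJB9, a chaperone of the endoplasmic reticulum, was below 0 in all 6 with SCD5. Its indirect mean was -0.20 ± 0.08 with CHX and 0.22 ± 0.15 with R1881 alone (SD, n = 2 each). The list holds genes placed there with earlier results known, and the sign of all values was set by it, so its count is not independent evidence of direction.

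The luminal prostate list, which shares KLK3, KLK2, TMPRSS2, STEAP2 and TRPM8 with it, had 9 of 24 members (37.5%) above 0 in all 6 and 0 below, beside 5.16% and 3.17% of all genes. Its other members above 0 were FOXA1, NPY, RLN1 and TMEFF2. FOXA1, a pioneer transcription factor of luminal cells, had direct ratios of 0.49 and 0.16 and an indirect mean of 0.37 ± 0.01 (SD, n = 2). GATA2, a zinc finger transcription factor outside the luminal list, had an indirect mean of 0.27 ± 0.01 (SD, n = 2). With R1881 alone both were at -0.24, and CHX alone put them at -2.02 and -0.41. RLN1, which encodes relaxin 1, had direct ratios of 0.35 and 0.13 and indirect values of 0.39 in experiment 1 and 0.98 in experiment 2, after a CHX effect of -3.83. The dye orientations of experiment 2 differed, at 0.26 in Cy3 and 1.70 in Cy5. TMEFF2, a transmembrane protein with follistatin-like domains, had an indirect mean of 0.35 ± 0.09 and a CHX effect of -3.01 ± 0.13 (SD, n = 2 each).

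Genes that glucocorticoids also induce had 5 of 24 members (20.8%) above 0 in all 6 and 0 below, beside 5.16% and 3.17% of all genes. They were FKBP5, ZBTB16, CEBPD, SLC19A2 and BCL6. CEBPD, a C/EBP transcription factor, had direct ratios of 0.47 and 0.33 and an indirect mean of 0.32 ± 0.02 (SD, n = 2). Its 2 probes differed, at indirect means of 0.67 and -0.04 and direct means of 0.82 and -0.02. SLC19A2, a thiamine transporter, had an indirect mean of 0.34 ± 0.20 (SD, n = 2) and stood at 0.49 ± 0.02 (SD, n = 2) with R1881 alone. Leaving out 1 experiment of CHX/R1881 or CHX put it between 0.18 and 0.49.

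Androgen-repressed genes lay around 0 as a list. Of 25 measured members 3 (12%) were above 0 in all 6 and 1 (4%) below, beside 5.16% and 3.17% of all genes. The median was 0.05 in the indirect mean and 0.00 in the direct mean, against -0.09 with R1881 alone. UGT2B15, an enzyme that conjugates androgens with glucuronic acid, was at 0.27 and 0.25 on the direct arrays and at 0.38 ± 0.10 (SD, n = 2) in the indirect mean, against -0.47 ± 0.21 (SD, n = 2) with R1881 alone. Its 2 dye orientations in experiment 1 differed, at -0.44 and 1.06. That came from 1 of its 2 probes, while the other gave 0.12 and 0.35 there, and the probes had indirect means of 0.37 and 0.39. UGT2B11 was above 0 in all 6, with an indirect mean of 0.12 ± 0.06 with CHX and -0.18 ± 0.11 with R1881 alone (SD, n = 2 each). The UGT2B transcripts are near-identical, and probes for one may read another.

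**Figure D3:**
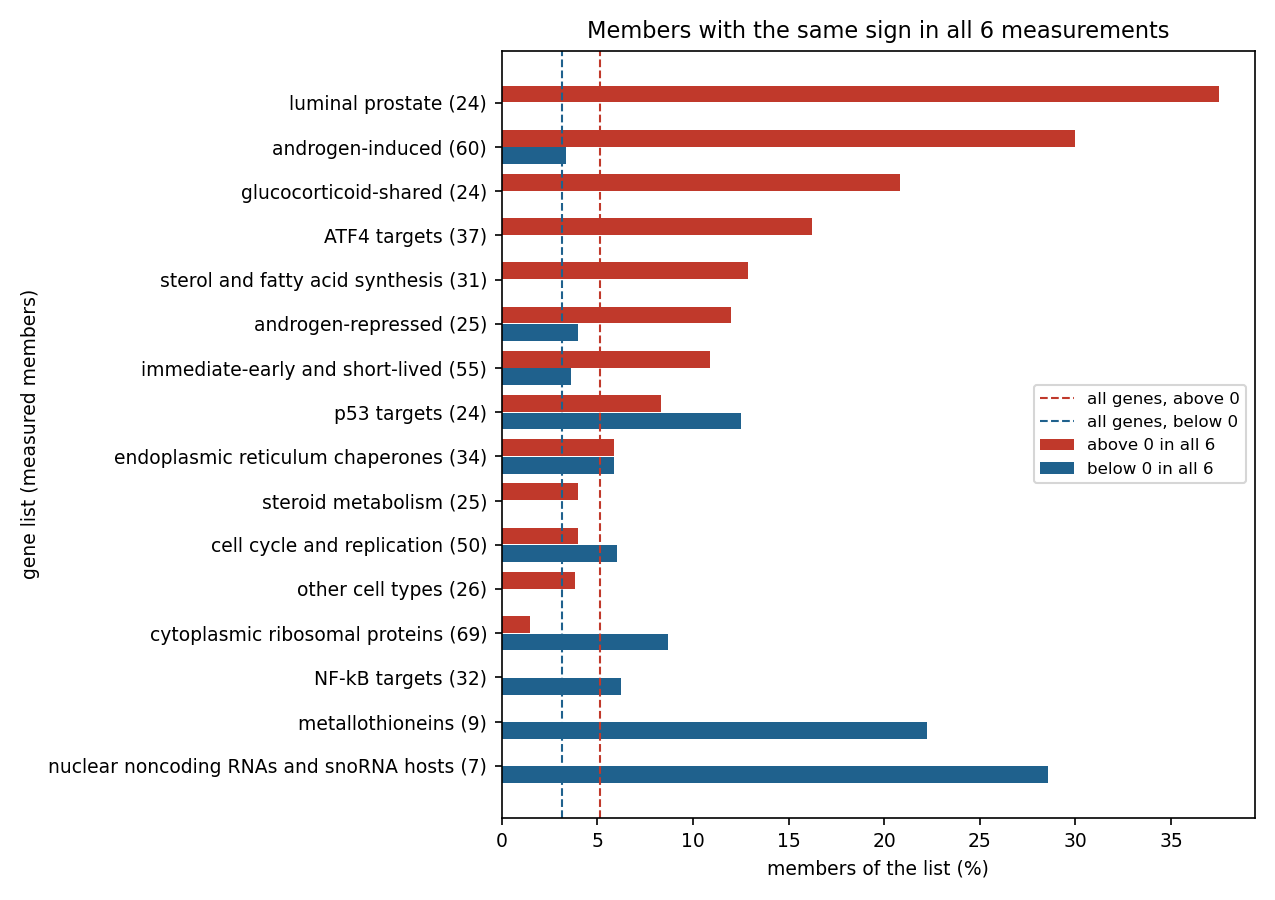
Share of each list's measured members (horizontal axis, %) above 0 (red) or below 0 (blue) in all 6 measurements of CHX/R1881 over CHX; dashed lines give the shares over all genes, 5.16% and 3.17%. The luminal prostate, androgen-induced and glucocorticoid-shared lists have the longest red bars, at 37.5%, 30% and 20.8%, and the 2 longest blue bars belong to lists of 9 and 7 genes.

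Metabolic and stress lists had smaller shares above 0 in all 6 than the luminal prostate, androgen-induced and glucocorticoid-shared lists. The shares were 12.9% for sterol and fatty acid synthesis, 16.2% for ATF4 targets, 5.88% for endoplasmic reticulum chaperones and 10.9% for immediate-early genes. Of all genes 5.16% were above 0 in all 6 and 3.17% below. Their medians were not all nearer 0. The indirect median was 0.07 for ATF4 targets and 0.05 for the luminal prostate list, with direct medians of 0.02 and 0.03. Sterol and fatty acid synthesis had 4 of 31 members above 0 in all 6 and 0 below, and its median was 0.07 in the indirect mean and 0.00 in the direct mean. FASN, fatty acid synthase, had direct ratios of 0.11 and 0.24 and an indirect mean of 0.32 ± 0.04 (SD, n = 2). ATF4 targets, the amino acid stress genes, had 6 of 37 above and 0 below. Among them SLC38A2, an amino acid transporter, had an indirect mean of 0.26 ± 0.01 and DDIT3, the factor CHOP, one of 0.15 ± 0.04 (SD, n = 2 each). Endoplasmic reticulum chaperones had 2 of 34 above and 2 below (5.88% each). P4HB, a protein disulfide isomerase, was at -0.34 ± 0.00 (SD 0.003, n = 2) in the indirect mean and at -0.27 and -0.10 on the direct arrays. Immediate-early genes had 6 of 55 above and 2 (3.64%) below, and HES1, a Notch target, reached 0.30 ± 0.02 (SD, n = 2).

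Cell cycle genes had 2 of 50 members (4%) above 0 in all 6 and 3 (6%) below, beside 5.16% and 3.17% of all genes. The list median was 0.02 in the indirect mean with CHX, against 0.34 with R1881 alone, where 49 of the 50 were above 0. TPX2, a spindle assembly factor, was at -0.25 ± 0.06 with CHX and 0.70 ± 0.04 with R1881 alone (SD, n = 2 each), a difference of -0.94 that limma did not call (adjusted p = 0.786). Its direct ratios were nearer 0, at -0.07 and -0.0025. MCM4, a subunit of the replicative helicase, was at 0.17 ± 0.01 with CHX and 0.51 ± 0.20 with R1881 alone (SD, n = 2 each). CHX alone gave the list a median of -0.38.

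Ribosomal protein genes had 1 of 69 members (1.45%) above 0 in all 6 and 6 (8.70%) below, beside 5.16% and 3.17% of all genes. Their median was -0.06 in the indirect mean and -0.01 in the direct mean. The dyes disagreed here. RPL11 had an indirect mean of -0.54 ± 0.04 (SD, n = 2), but the 2 orientations of experiment 1 gave 0.18 in Cy3 and -1.31 in Cy5, and those of experiment 2 gave -0.86 in Cy3 and -0.15 in Cy5. RPL39 showed 0.21 and -1.55 in experiment 1, and on the direct arrays the pair stayed between -0.02 and -0.17. In experiment 1 the gap came mostly from 1 of the 2 probes of each gene. For RPL11 that probe gave 0.31 and -2.43, against 0.04 and -0.18 for the other. For RPL39 it gave 0.47 and -2.91, against -0.05 and -0.19. In experiment 2 both RPL11 probes differed between dyes, at -1.12 and -0.26 and at -0.61 and -0.04. Transcripts of ribosomal proteins also share sequence with many processed pseudogenes.

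The other lists held few agreeing members in number, though several shares below 0 exceeded the 3.17% of all genes. Above and below 0 in all 6 were 1 (4%) and 0 of 25 steroid metabolism genes and 2 (8.33%) and 3 (12.5%) of 24 p53 targets. NF-kB targets had 0 and 2 (6.25%) of 32 and metallothioneins 0 and 2 (22.2%) of 9. Nuclear noncoding RNAs had 0 and 2 (28.6%) of 7, and MALAT1 was at -0.20 ± 0.01 with CHX and -0.87 ± 0.30 with R1881 alone (SD, n = 2 each). NEAT1 was above 0 in 4 of 6, and its direct ratios of -0.16 and -0.10 went against its indirect mean of 0.14 ± 0.08 (SD, n = 2). Markers of other cell types had 1 of 26 (3.85%) above and 0 below, with a median of 0.01. The exception was VWF, an endothelial coagulation factor, at 0.34 ± 0.04 with CHX and 0.58 ± 0.09 with R1881 alone (SD, n = 2 each).

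Genes ranked by their values with R1881 alone were set beside their values with CHX. Because the ranking used the R1881-alone values, smaller values with CHX follow in part from the choice of genes, and no loss of response can be read from them. The 30 genes with the highest mean among those above 0 on all 4 R1881 arrays had a median of 0.15 in the indirect mean and 0.11 in the direct mean with CHX, against 0.72 with R1881 alone. Of these, 12 (40%) were above 0 in all 6 measurements with CHX and 2 (6.67%) were below, SCD5 and TPX2, beside 5.16% and 3.17% of all genes. HES6, a basic helix-loop-helix factor, was at 0.21 with CHX and 0.97 with R1881 alone. GPR158, an orphan G protein-coupled receptor, was at 0.37 with CHX and 0.79 with R1881 alone, and the hexosamine pathway enzyme UAP1 was at 0.33 and 0.66. C1orf116 was at 0.87 with CHX and 0.78 with R1881 alone, and ZBTB16 at 0.77 and 0.63, with differences of 0.08 and 0.14. TRPM8 was lower with CHX by 0.94.

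The 30 genes lowest with R1881 alone had a median of -0.51 there, against 0.02 in the indirect mean and -0.08 in the direct mean with CHX. In all 6 measurements with CHX, 5 (16.7%) were below 0 (MALAT1, NIPSNAP3B, TMEM38B, PRAC1 and DNAJC12) and 1 (3.33%) above. The one above was MID1, a microtubule-associated ubiquitin ligase, at 0.26 with CHX and -0.51 with R1881 alone. Over all genes, 5.16% were above 0 in all 6 measurements with CHX and 11.7% on all 4 arrays with R1881 alone, and 142 (0.977%) were above in both. Below 0 were 3.17% with CHX and 13.0% with R1881 alone, and 89 (0.612%) in both. A further 137 (0.943%) were above 0 with CHX and below 0 without, and 67 (0.461%) were below 0 with CHX and above 0 without.

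**Figure D4:**
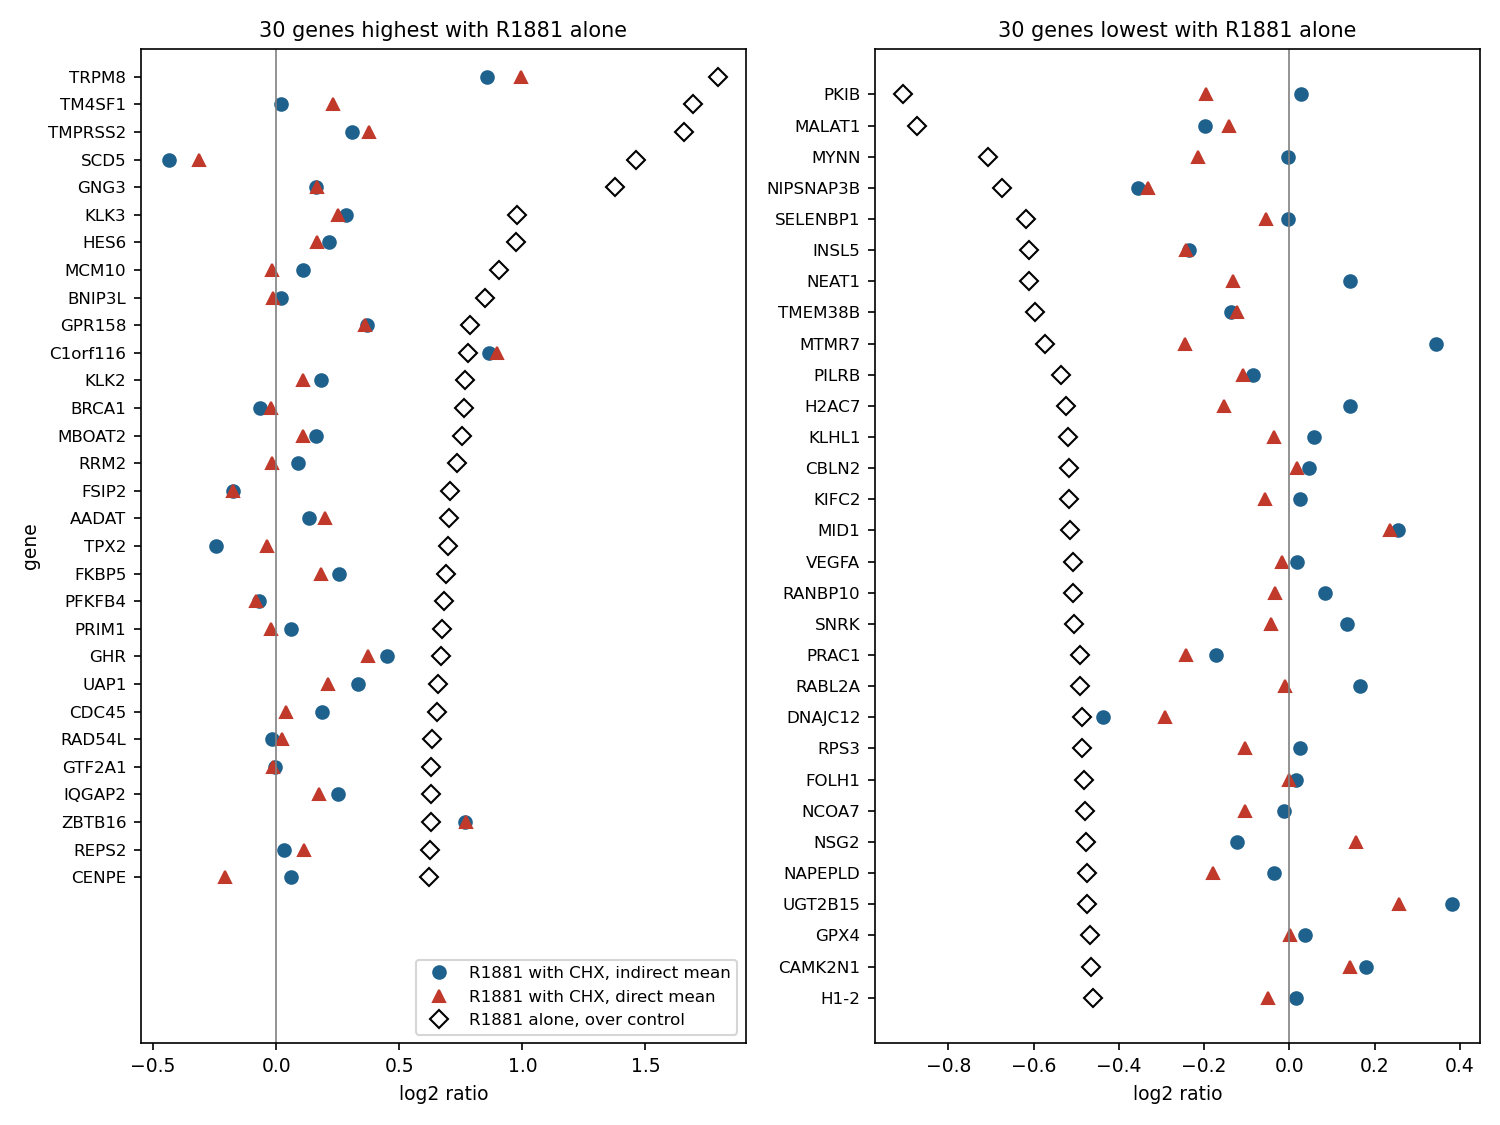
Log2 ratios (horizontal axis) of the 30 genes highest (left panel) and 30 lowest (right panel) with R1881 alone; filled symbols are R1881 with CHX over CHX (circles, mean of 2 experiments; triangles, mean of 2 direct arrays) and open diamonds R1881 alone over control (mean of 2 experiments). The genes were chosen by the diamonds, so filled symbols nearer 0 are in part set by that choice; those of C1orf116 and ZBTB16 lie beyond their diamonds and those of SCD5 on the opposite side of 0.

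Of the 27648 probes per array, 9937 could not be named and were left out of these counts. Among them 326 (3.28%) were above 0 in all 6 measurements and 260 (2.62%) below.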

How the data were processed

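The authors deposited 1 log ratio per probe and array, for 27648 probes on 14 two-colour arrays. Per the labels, amplified RNA was coupled to Cy3 or Cy5, the experiments were independent cultures, and each hybridisation was repeated with switched dyes. The deposited values were taken as log2, since the base, the array normalization and the centring are not given in the sources used here. Dye-swapped arrays were already turned the same way. Array medians lay near 0, and no intensities were used. Precision is limited by the number of arrays and, for every test, by the 2 cultures per treatment.

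Probes were named through accessions or symbols of the platform annotation, giving 17711 named probes (for 3837 the accession led to a symbol other than the one listed) and 14533 genes, of which 2067 had over 1 probe. Probes of a gene were averaged. All values were multiplied by -1. Dye swaps were averaged to 6 log ratios (3 treatments over control in 2 experiments) and fitted with limma 3.58.1 in R 4.3.3, with 3 residual degrees of freedom, a Benjamini-Hochberg threshold of 0.05 over 14533 genes, and contrasts for CHX/R1881 minus CHX and for that minus R1881. The direct arrays stayed out of the fit, and a count of genes with 1 sign in all 6 measurements was taken beside it. The fit was tested on simulated data. Alternatives changed the block, the direct arrays, the scaling, the dye orientation, the probes and the replicates. Tables were made in Python 3.11.15.

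The genes named are the 12 highest and 12 lowest agreeing genes, up to 4 members of each list with the smallest p, and a fixed set of androgen-response genes. Genes just outside the ranking, genes of the R1881-alone ranking and list members given only as above or below 0 in all 6 were named after their values were seen. The result of 1 list is not reported here. The members and the lists were chosen with earlier results of these data known. Promoter sequences are from RefSeq on GRCh38.p14.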

Additional observations from a re-analysis of the deposited data

Results flagged for a closer look

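Some genes named above lay on opposite sides of 0 with and without CHX on every array, so that all 6 measurements of CHX/R1881 over CHX had 1 sign and all 4 arrays of R1881 over control the other. The difference of the 2 responses (with CHX minus without, log2) was 0.82 for PLA2G2A, 0.64 for STEAP2, 0.50 for GATA2, 0.35 for DDIT3 and 0.29 for UGT2B11, which were above 0 with CHX. It was -1.90 for SCD5, -0.94 for TPX2, -0.55 for BOLA1, -0.46 for RINT1 and -0.42 for DNAJB9, which were below 0 with CHX. Limma passed none of these differences, and the smallest adjusted p among all genes was 0.610. Over all genes, 137 (0.943%) were above 0 with CHX and below 0 without on every array, and 67 (0.461%) the other way.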

How the results depend on the processing

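For CHX/R1881 over CHX, limma called 0 genes under each alternative processing except the random block over 12 arrays, which called 2 and entered dye swaps as separate values. For the difference of the responses it called 1 gene with arrays scaled to the same spread, 1 with quantile normalization and 2 (SCD5 and TMPRSS2) with the direct arrays as a seventh log ratio or with the random block, 2 settings added after seeing the data, and 0 otherwise. Equal spread and quantile normalization rescale the responses with and without CHX by different amounts, so those calls are no evidence of a difference. Replicate numbers were shared by the groups, and the deviations of CHX/R1881 and CHX between experiments had a correlation of 0.564 over genes, from 2 pairs only. With the replicate block 0 genes were called in either contrast, and 358 and 819 had an unadjusted p under 0.05. The count of agreeing genes (1210) was 483 with the direct array with CHX/R1881 in Cy5 turned, 138 at a size of at least 0.1, 4827 from 3 values and 2666 and 3426 without replicate 1 or 2 of the indirect arrays, with 64.4% and 45.8% above 0. The direct median of the androgen-induced list (0.09) was 0.10 on the Cy3 array alone and 0.0030 with the Cy5 array turned. Signs reversed for 10 named genes, 6 of them among the 12 lowest. The fits without 1 replicate drop it from 1 treatment only, so CHX/R1881 and CHX are not paired within experiments there. TM4SF1 was at -0.011 when experiment 1 was averaged with the direct arrays, -0.026 with scaling, -0.018 with quantile normalization and -0.17 with treated RNA in Cy3 only, where SGK1 was at -0.14 and TSC22D3 at -0.054. Without 1 replicate, values ran from -0.73 to 0.018 for NIPSNAP3B, -0.85 to 0.028 for ARPC5, -0.55 to 0.021 for RINT1, -0.54 to 0.043 for AMIGO2, -0.54 to 0.062 for CFAP70, -0.55 to 0.018 for BOLA1, -0.33 to 0.37 for TM4SF1, -0.31 to 0.35 for SGK1, -0.13 to 0.21 for TSC22D3 and -0.15 to 0.44 for NEAT1. The causes were not tested. Precision is limited by the 2 cultures per treatment, and signal over background could not be judged without intensities.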
